A study of Mus musculus with 21 samples.

Results

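The genes described here encode the subunits of oxidative phosphorylation. They were taken by symbol: protein-coding mouse genes that begin with Nduf (followed by a, b, c, s or v), Uqcr, Cox4 to Cox8 or Atp5, the 4 Sdh genes, and the protein genes of mitochondrial DNA, without pseudogenes. The rule found 107 of the 31053 gene IDs in the count tables, 94 of them nuclear and 13 mitochondrial. The nuclear genes comprised 36 for complex I, 8 assembly factors of complex I (Ndufaf1 to Ndufaf8), 4 for complex II, 8 for complex III, 20 for complex IV, 17 for complex V and Atp5s, a coupling factor. Mitochondrial DNA supplied 7 genes for complex I, 1 for complex III, 3 for complex IV and 2 for complex V. Ndufa4 and Ndufa4l2 carry complex I names and were placed with complex IV, where the Ndufa4 protein is found.

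Messenger RNA was sequenced from E14Tg2a cells, a male 129 line of mouse embryonic stem cells with a destabilised green fluorescent protein (GFPd2) knocked into 1 allele of Rex1 (Zfp42), so that all groups shared this line and reporter. The 21 libraries formed 7 groups of 3: 2i+LIF PO, and 2i+LIF, CH+LIF and LIF at LP and at HP. All groups shared NDiff227 basal medium and, per the labels' protocol, 1 week with CHIR99021 (CH, a GSK3 inhibitor, 3 µM) and PD0325901 (PD, a MEK inhibitor, 1 µM), after which CH, PD and the cytokine LIF were alternately given and withdrawn at each passage. The series names zero passage, 1 month and 2 months of culture; the labels do not say which of LP and HP is longer, and PO is read as zero passage. Nothing in the labels says that the replicates were separate cultures, so p-values measure the spread between these libraries, which may be technical.

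Oxidative phosphorylation transfers electrons from NADH (through complex I) and succinate (through complex II) by way of ubiquinone, complex III and cytochrome c to complex IV, which reduces oxygen. Complexes I, III and IV pump protons across the inner mitochondrial membrane, and complex V, the ATP synthase, uses the returning protons to make ATP. Most subunits are encoded in the nucleus and imported, complex II entirely so, while a few membrane-embedded core subunits of complexes I, III, IV and V are made inside the mitochondrion. Mouse embryonic stem cells in the naive state are known to respire as well as to use glycolysis.

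Gene counts ranged from 1132126 to 3783043 per library. The PO libraries came from another sequencing run, by their file names, so run and PO cannot be told apart. A pair of libraries stood apart: in 2i+LIF PO replicate 1 the mitochondrial genes took 39.09% of gene counts, and in 2i+LIF LP replicate 1 they took 0.2099% while the single gene Gm42418 took 31.65%. In the other 19 libraries the mitochondrial share lay between 1.25 and 9.835%. Embryonic stem cell markers (8 genes, Pou5f1 and Nanog among them) had counts in every group and summed to between 1400 and 3950 CPM (library-scaled read counts per gene, with TMM factors) per library. Primitive endoderm, neural, mesoderm, trophoblast and feeder fibroblast markers summed to at most 14.2, 71.1, 45.2, 30.9 and 36.9 CPM in any library. In such bulk samples, fewer cells of a type and less RNA per cell cannot be told apart.

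Of the 107 genes, 98 had enough counts to be tested, 87 nuclear and 11 mitochondrial. Those left out were Cox8c, Cox6a2, Cox8b, Cox4i2, Ndufs5, Atp5s, mt-Atp8, mt-Nd4l and a second ID of Atp5o; mt-Nd4l and the second Atp5o had no count in any library. Per kilobase of annotated exon, the most abundant tested nuclear gene of each complex was Ndufa2 in complex I (840 CPM per kb, mean of 21 libraries), Sdhb in complex II (115), Uqcr10 in complex III (916), Cox6a1 in complex IV (741) and Atp5k in complex V (1440). The lowest on the same scale were Ndufab1, the mitochondrial acyl carrier protein (8.12), Sdhc (10.3), Uqcrfs1, the Rieske iron-sulfur protein (35.8), Ndufa4l2 (2.5) and Atp5g2 (3.39). Some low levels coincided with sequence shared with other annotated genes: 36.7% of the 50-base words of Atp5g2 and 21.7% of those of Ndufs5, a complex I subunit listed with 20 counts in all, occurred exactly in another gene.

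Summed over all complexes, nuclear-encoded genes stood highest in LIF HP; those of complex II were highest in CH+LIF LP. The summed share of gene counts was 3.37% ± 0.51 (SD, n = 3) in LIF HP and 1.82% ± 0.275 (n = 3) in LIF LP. The share was 2.08% ± 0.431 in 2i+LIF HP, 2.37% ± 0.513 in CH+LIF HP, 2.13% ± 0.217 in CH+LIF LP, 1.49% ± 0.666 in 2i+LIF LP and 1.67% ± 1.1 in 2i+LIF PO (n = 3 each). The median over the 87 tested genes of log2 CPM minus each gene's 21-library mean was 0.578, 1.27 and 1.23 in the 3 LIF HP libraries. No other library exceeded 0.497, the value of CH+LIF HP replicate 1. The lowest were the pair of libraries that stood apart, at -1.39 (PO) and -1.37 (2i+LIF LP).

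**Figure D1:**
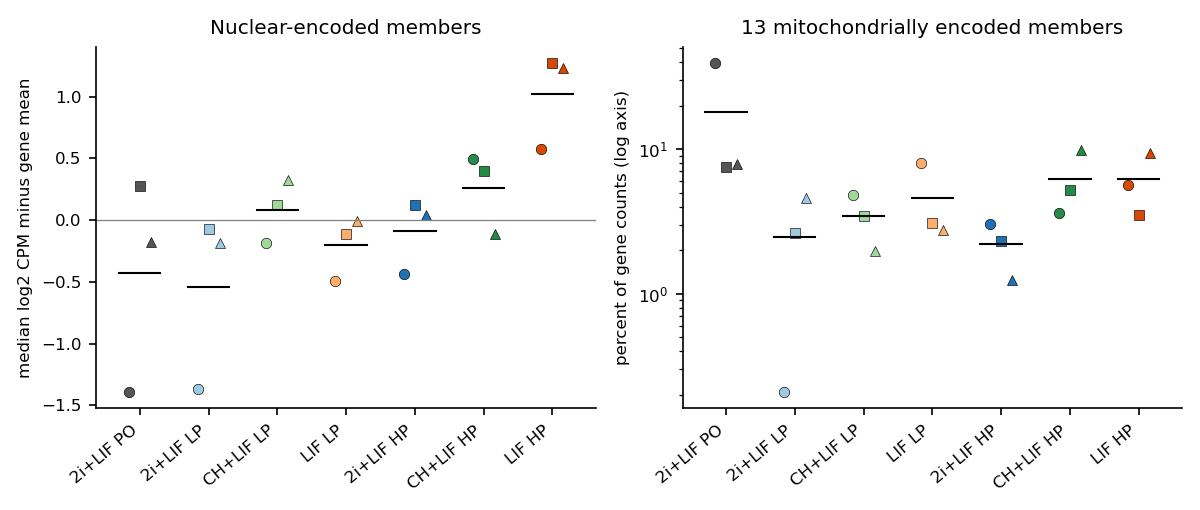
Left, the median over 87 nuclear-encoded genes of log2 CPM minus each gene's 21-library mean; right, the percent of gene counts from the 13 mitochondrially encoded genes (log axis), each by library (circle, square and triangle for replicates 1, 2 and 3; bar, group mean). The 3 LIF HP libraries lie at 0.578 or above on the left, and 2i+LIF PO replicate 1 lies at 39.09% on the right.

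In LIF HP against LIF LP, 27 of the 87 nuclear genes rose and none fell (edgeR quasi-likelihood test, adjusted p under 0.05). Of all genes tested in this comparison 5.33% rose, and 9.96% were called in either direction. The median log2 fold change of the 87 was 1.17, against 0.00771 over all genes, and 82 of the 87 values were above 0. The rises lay in complex I (8 of 35 tested), III (3 of 8), IV (9 of 16) and V (7 of 16). None of the 4 complex II genes and none of the 8 complex I assembly factors passed. The median log2 fold change was 1.16 for complex I, 1.43 for III, 1.72 for IV and 1.31 for V, against 0.282 for complex II and 0.715 for the assembly factors; no test was made of the difference between complexes.

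**Figure D2:**
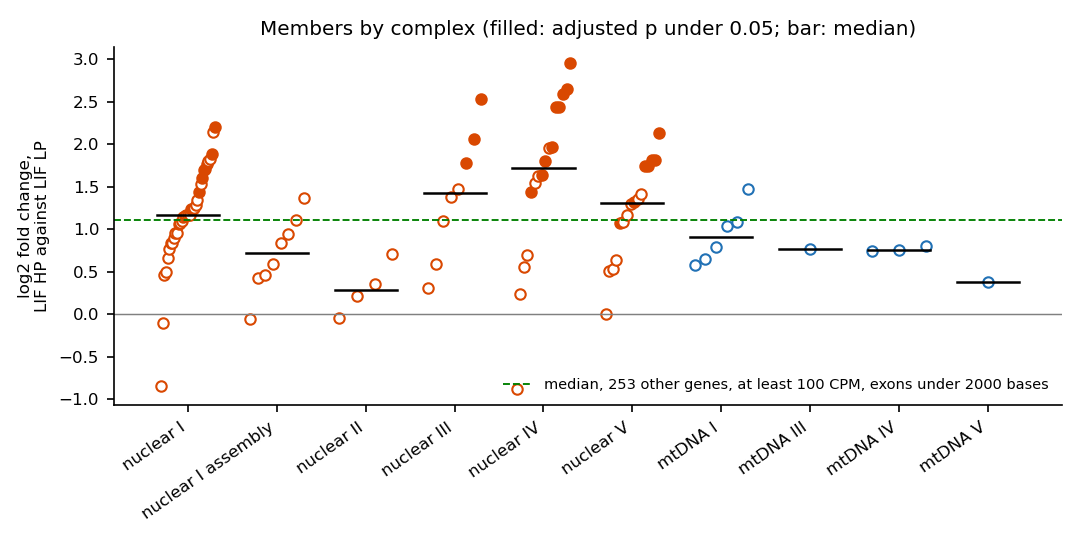
Log2 fold change of each tested gene in LIF HP against LIF LP, by genome and complex; filled points have an adjusted p under 0.05, bars are medians, and the dashed line is the median of 253 other abundant genes of short exon length. Filled points occur among nuclear genes of complexes I, III, IV and V, and none among complex II, the assembly factors or the mitochondrial genes.

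Cox7a1 encodes the form of complex IV subunit 7a known from heart and skeletal muscle (chromosome 7, 30184144 to 30186078, plus strand, GRCm38). It had 132, 208 and 299 CPM in the LIF HP libraries and 28.6, 23.9 and 29.8 CPM in LIF LP. In the remaining libraries it lay between 0 and 70 CPM, the 0 being 2i+LIF PO replicate 1, where no count allows up to 3 counts (counting error only), and the 70 a 2i+LIF HP library. All LIF HP values were thus above all others. The log2 fold change against LIF LP was 2.95 ± 0.68 (SE), 7.71-fold, with an adjusted p of 0.00781.

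Uqcr10, a small complex III subunit (chromosome 11, 4701973 to 4704342, minus strand), had 950, 1220 and 1950 CPM in LIF HP and 165, 282 and 265 CPM in LIF LP. These groups did not overlap, and the highest of the remaining libraries, a 2i+LIF HP library at 916 CPM, came close to the lowest LIF HP value. The log2 fold change against LIF LP was 2.53 ± 0.56 (adjusted p = 0.0064). Cox7a1 and Uqcr10 were the 2 of the 27 genes that passed in the main test and all 28 alternatives, with adjusted p up to 0.0472 and 0.0467.

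The other largest rises were in complex IV. Ndufa4, a complex IV subunit despite its name, rose by 2.65 ± 0.67 in log2 (adjusted p = 0.0138), and Cox7c by 2.59 ± 0.69 (adjusted p = 0.0174). Cox6b1, the widely expressed form of subunit 6b, had 363, 631 and 733 CPM in LIF HP and 106 ± 49 CPM (SD, n = 3) in LIF LP, where the lowest library had 60.6 CPM, a log2 fold change of 2.44 ± 0.64 (adjusted p = 0.0169). It was not highest in LIF HP in every library: 2i+LIF PO replicate 2 had 763 CPM. The annotation places 30 of the nuclear genes over another listed gene (Cox4i1 over Emc8, Ndufa3 over Tfpt, Ndufb2 over Braf, Ndufs6 over Mrpl36 among them), and whether strand was used in counting is not given in the sources used here, so these counts are uncertain. The remaining rises ran from 1.07 (Atp5o, the stalk subunit OSCP) to 2.43 (Cox7b).

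They were, in complex I, Ndufa3, Ndufa5, Ndufa13, Ndufb4, Ndufb7, Ndufb9, Ndufs6 and Ndufv2, of which Ndufv2 is a core subunit with an iron-sulfur cluster and the others are accessory subunits. In complex III they were Uqcrh, the hinge protein, and Uqcrq. In complex IV they were Cox4i1, Cox5a, Cox5b, Cox7a2 and Cox7b. In complex V they were Atp5g1, 1 of the 3 genes for the subunit c of the rotor ring, Atp5h, Atp5j2, Atp5k, Atp5l, Atp5mpl and Atp5o. The lowest values, none of which passed, included genes picked here after their values were seen: Ndufs1 had a log2 fold change of -0.11 ± 0.32, Atp5a1, subunit alpha of complex V, 0.00 ± 0.32, and Sdha, the flavoprotein of complex II, -0.05 ± 0.39. Ndufv1, the subunit that oxidises NADH, had -0.85 ± 0.36 (adjusted p = 0.13).

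Single libraries weighed heavily on the number of genes called in LIF HP against LIF LP. It was 4 on omitting replicate 3 of LIF HP, 9 on omitting replicate 2 of LIF HP, 5 on omitting replicate 1 of LIF LP, 5 on omitting replicate 2 of LIF LP and 17 on omitting replicate 3 of LIF LP. It was 48 on omitting replicate 1 of 2i+LIF LP, 45 on omitting replicate 1 of 2i+LIF PO and 61 without both (21.6% of all genes in that fit). No share of all genes is given for the other fits. The median log2 fold change stayed between 1.02 and 1.35 over the fits that each left out a single library.

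Other abundant genes of short exon length moved alongside. Among 253 genes outside the rule with at least 100 CPM and less than 2000 bases of exon, a set chosen after seeing the data, the median log2 fold change in LIF HP against LIF LP was 1.11, and 31.2% rose. All other genes outside the rule had a median of 0, with 5.12% rising. The 35 nuclear genes of the rule within the same limits had a median of 1.54, with 54.3% rising. Divided by exon length alone, the 55 nuclear genes under 2000 bases had a median of 1.34 and the 32 longer ones a median of 0.916. The difference between these sets was not tested.

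The same held library by library. The 253 other genes had a median log2 CPM minus gene mean of 0.495, 1.07 and 0.994 in the 3 LIF HP libraries, beside 0.578, 1.27 and 1.23 for the 87 nuclear genes. The 87 were not held to the limits of level and exon length that define the 253. In 2i+LIF PO replicate 1 and 2i+LIF LP replicate 1 the 253 genes lay at -1.16 and -0.96. LIF HP libraries also had a larger share of alignments that were not unique, 30.26 to 35.45% of all entries against 20.77 to 30.41% in the other 18 libraries. Their share outside genes was 8.461 to 16.69% against 12.21 to 25.84%, and their TMM factors were 0.6528 to 0.9622 against 0.6347 to 1.217. The 4 neural markers, of which Neurog2 was at 0 in both groups, summed to 10.5 to 24.2 CPM in LIF HP and 64 to 71.1 CPM in LIF LP, and 1 of the 3 tested, Sox1, was lower in LIF HP (log2 fold change -2.82 ± 0.73, adjusted p = 0.0154). The 4 feeder fibroblast markers summed to 7.39 to 9.79 CPM in LIF HP, with Col1a2 and Lum at 0, and 11.1 to 36.9 CPM in LIF LP, and neither of the 2 tested passed. The part of these measures in the higher levels of the nuclear genes was not tested.

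**Figure D3:**
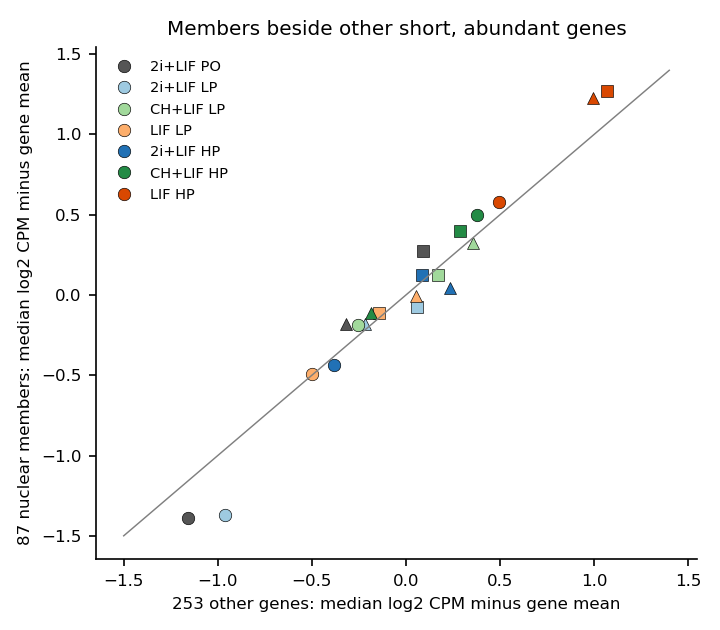
Median log2 CPM minus gene mean per library for the 87 nuclear-encoded genes (vertical) and for 253 other genes with at least 100 CPM and under 2000 bases of exon (horizontal); colours are groups, symbols replicates, and the line marks equal values. Both sets are highest in LIF HP replicates 2 and 3 (1.27 and 1.23 against 1.07 and 0.994) and lowest in the pair of libraries that stood apart. The 87 genes are not held to the limits of the 253.

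Few nuclear genes were called between LIF HP and the other media at HP, and their number moved widely with the setting. Against 2i+LIF HP, 5 of 87 (5.75%) rose in LIF HP and none fell, beside 2.1% of all genes that rose and 3.78% called in either direction: Ndufb2, Ndufc2, Ndufv3 and Ndufa3 of complex I and Uqcrq of complex III. The median log2 fold change of the 87 was 1.05, and 47 had an unadjusted p under 0.05, beside 19.5% of all genes. DESeq2 called 20, edgeR with no filter 27, with the replicate block 17 and with the groups compared alone 24. The share of all genes called in these settings is not given, so the counts cannot be set against it. Ndufb2, an accessory subunit, had 212, 311 and 432 CPM in LIF HP and 48.8, 93.8 and 105 CPM in 2i+LIF HP (1.95 ± 0.46, adjusted p = 0.0179). Ndufc2 had 132, 225 and 247 CPM against 50.2, 84.5 and 30.7 CPM (1.86 ± 0.44, adjusted p = 0.0166). Ndufv3 rose by 1.46 ± 0.39, Ndufa3 by 1.32 ± 0.38 and Uqcrq by 1.66 ± 0.46, with adjusted p of 0.0334, 0.0486 and 0.0403. None of the 5 passed in every alternative: the count was 0 on omitting replicate 1 of 2i+LIF HP, replicate 2 of LIF HP or replicate 3 of LIF HP. It was 1 on omitting replicate 3 of 2i+LIF HP, 2 on omitting replicate 2 of 2i+LIF HP or replicate 2 of CH+LIF HP, and 3 on omitting replicate 3 of 2i+LIF PO, replicate 2 of CH+LIF LP or replicate 2 of LIF LP. It was 9 on omitting replicate 2 of 2i+LIF PO, 24 on omitting replicate 1 of 2i+LIF PO, 21 on omitting replicate 1 of 2i+LIF LP and 44 without both libraries that stood apart (13% of all genes in that fit). The 253 other short, abundant genes had a median of 0.847 in this comparison, with 9.09% rising. The 87 nuclear genes were not held to the same limits of level and exon length.

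Against CH+LIF HP, 2 of 87 (2.3%) rose in LIF HP and none fell, beside 0.592% of all genes that rose and 1.47% called in either direction. An unadjusted p under 0.05 was found for 24, beside 14.7% of all genes, and 26 were called with the groups compared alone and 13 without both libraries that stood apart (6.92% of all genes in that fit). They were Cox7a1, whose CH+LIF HP libraries were at 35, 36.7 and 12.9 CPM (a difference of 2.90 ± 0.68 in log2, adjusted p = 0.0254), and Cox6b2, the form of subunit 6b known from testis. Cox6b2 had 212, 403 and 192 CPM in LIF HP and 67.5, 113 and 38.8 CPM in CH+LIF HP (1.87 ± 0.44, adjusted p = 0.0279). Its LIF LP libraries, 2 of them at 209 and 201 CPM, overlapped those of LIF HP. The median over the 87 genes, which were not limited by level or exon length, was 0.778. It was 0.712 over the 253 other short, abundant genes. No gene was called on omitting replicate 1 of CH+LIF HP, replicate 3 of CH+LIF HP, replicate 2 of LIF HP or replicate 3 of LIF HP, and 1 was called on omitting replicate 2 of CH+LIF HP or replicate 1 of LIF HP.

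No nuclear gene passed edgeR's main test in the other 6 comparisons of media or of HP with LP. These were CH+LIF LP against 2i+LIF LP (0% of all genes called), LIF LP against 2i+LIF LP (0.489%), LIF LP against CH+LIF LP (0.047%), CH+LIF HP against 2i+LIF HP (2.02%), 2i+LIF HP against 2i+LIF LP (3.67%) and CH+LIF HP against CH+LIF LP (0.0094%). In this order, 7, 4, 3, 3, 8 and 1 of the 87 genes had an unadjusted p under 0.05. Of all genes, 8.93, 11.9, 4.71, 11.6, 17 and 5.37% did. DESeq2 called 0, 0, 0, 1, 1 and 0 of the nuclear genes. The medians in the same order were 0.511, 0.155, -0.346, 0.292, 0.329 and 0.158. Other edgeR settings called up to 2 nuclear genes in 2i+LIF HP against 2i+LIF LP. The test of whether HP against LP differed between media gave no call among the nuclear genes in edgeR's main test, and some other settings gave calls for LIF. The interactions of LIF with 2i+LIF, LIF with CH+LIF and CH+LIF with 2i+LIF each called 0, beside 0.15%, 0.423% and 0.0188% of all genes. In this order, 13, 21 and 1 nuclear genes had an unadjusted p under 0.05, beside 11%, 11.7% and 6.49% of all genes. DESeq2 called 1, 1 and 0. A joint test of any difference among the 6 cultured groups called 27 nuclear genes, against 13.1% of all genes tested. It called 16 on omitting replicate 1 of LIF LP or replicate 2 of LIF LP, 3 on omitting replicate 2 of LIF HP, 2 on omitting replicate 3 of LIF HP and 45 on omitting replicate 1 of 2i+LIF PO. Genes called there and in none of the comparisons of media or of HP with LP were Ndufa2, Ndufa6, Ndufb3, Ndufs4 and Uqcrb.

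**Figure D4:**
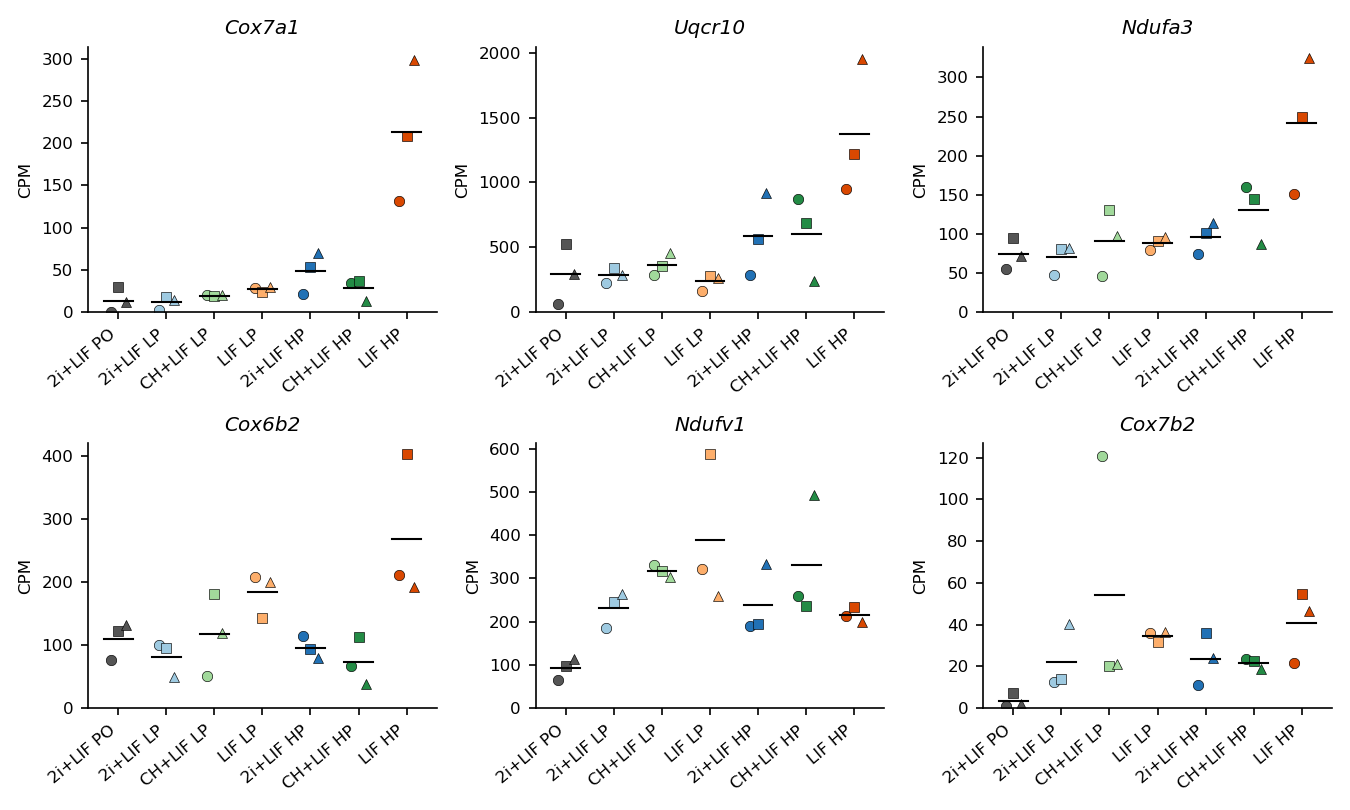
CPM by library for Cox7a1, Uqcr10, Ndufa3, Cox6b2, Ndufv1 and Cox7b2 (circle, square and triangle for replicates 1, 2 and 3; bar, group mean; axes start at 0). Cox7a1 is above 130 CPM in LIF HP alone, while Ndufv1 and Cox7b2 are lowest in 2i+LIF PO.

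Several complex IV subunits exist in alternative forms made by separate genes, and the families differed in how much the minor form contributed. Cox7a1 made up 9.64% ± 0.853 (SD, n = 3) of the counts of the Cox7a family (with Cox7a2 and Cox7a2l) in LIF HP and between 1.62 and 4.22% on average in the other groups. The lowest LIF HP library was at 8.74% and the highest of the others at 5.25%. Cox7a2, the widely expressed form, had 71.9% ± 5.8 and Cox7a2l, which takes part in respiratory supercomplexes, 18.4% ± 6.39 in LIF HP. Cox6b2 made up 64.3% ± 11.6 of the Cox6b counts in LIF LP and 32.2% ± 9.97 in LIF HP; its other group means lay between 22 and 42.2%. Cox7b2, a form known from testis, made up 1.31% ± 0.642 of Cox7b counts in 2i+LIF PO and 5.62% ± 1.08 to 22.2% ± 4.48 in the cultured groups.

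Among the subunit c genes, Atp5g3 supplied 82.3% ± 2.51 of counts in 2i+LIF PO, 65.2% ± 0.808 in LIF LP and 53.7% ± 0.386 in LIF HP, with Atp5g1 supplying nearly all the rest. In 2i+LIF HP the Atp5g3 share was 40.9% ± 23.1, its libraries ranging from 15.7 to 61.2%. Cox4i1 and Cox6a1 supplied at least 99.2% of their families' counts in every library, and their partners Cox4i2 and Cox6a2 were below the filter. The shares are given as a description, and no test was made of them.

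The sequences before 4 genes that rose in LIF HP against LIF LP are shown: Cox7a1 beside its widely expressed partner Cox7a2, Ndufa3 for its call against both LIF LP and 2i+LIF HP, and Cox6b1 among the 5 largest rises. Each line gives the 250 bases before the RefSeq start, 5′ to 3′ in the direction of the gene (GRCm38.p6). They are chr7:30183921-30184170 (plus strand) for Cox7a1, chr9:79759854-79760103 (minus) for Cox7a2, chr7:3617123-3617372 (plus) for Ndufa3 and chr7:30626115-30626364 (minus) for Cox6b1. Capitals mark exact matches, on either strand, to 4 motifs described for promoters of respiratory genes: NRF1 (GCGCA and GCGC with any 1 base between them), ETS factors (CCGGAAG), YY1 (AAGATGGCG) and the CCAAT box (CCAAT).
Cox7a1: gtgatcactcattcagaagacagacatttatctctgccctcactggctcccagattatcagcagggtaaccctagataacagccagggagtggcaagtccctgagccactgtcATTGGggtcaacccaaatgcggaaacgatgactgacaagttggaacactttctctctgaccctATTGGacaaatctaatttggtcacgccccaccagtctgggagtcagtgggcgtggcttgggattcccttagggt
Cox7a2: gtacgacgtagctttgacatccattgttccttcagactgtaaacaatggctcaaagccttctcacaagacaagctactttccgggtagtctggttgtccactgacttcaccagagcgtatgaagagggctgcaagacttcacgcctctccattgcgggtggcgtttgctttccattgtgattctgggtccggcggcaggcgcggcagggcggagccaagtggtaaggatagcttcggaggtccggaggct
Ndufa3: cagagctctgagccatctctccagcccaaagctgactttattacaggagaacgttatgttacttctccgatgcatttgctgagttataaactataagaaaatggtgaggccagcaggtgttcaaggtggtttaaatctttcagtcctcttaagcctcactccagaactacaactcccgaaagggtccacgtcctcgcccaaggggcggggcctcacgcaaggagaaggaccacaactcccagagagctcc
Cox6b1: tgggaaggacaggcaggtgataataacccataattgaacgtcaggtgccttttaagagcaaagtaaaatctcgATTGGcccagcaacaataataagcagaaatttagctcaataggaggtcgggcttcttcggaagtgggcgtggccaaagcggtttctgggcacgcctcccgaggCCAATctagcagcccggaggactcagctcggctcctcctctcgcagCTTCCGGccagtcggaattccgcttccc

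Cox7a1 had 2 inverted CCAAT matches, Cox6b1 had 1 CCAAT match on each strand and an inverted ETS match, and the stretches of Cox7a2 and Ndufa3 held none of the 4. Of the 94 nuclear genes, 75 matched the RefSeq promoter table, which covers 250 bases before to 50 bases after the start. NRF1 letters were present in 20 of the 75 (26.7%), against 5.19% of all 27025 genes and 4.6% of all 32851 promoters in the table, and in 6 of 23 (26.1%) of those that rose in LIF HP against LIF LP. ETS letters were present in 24%, against 9.93% of all genes and 8.86% of all promoters, and in 26.1% of those that rose. YY1 letters were present in 10.7%, against 1.64% of all genes and 1.4% of all promoters, and in 8.7% of those that rose. CCAAT was present in 44%, against 41.1% of all genes and 37.4% of all promoters, and in 52.2% of those that rose. A gene with several promoters was counted once, as holding the motif if any of them did. A match is a run of letters, not evidence of binding.

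The 13 mitochondrially encoded genes were counted very unequally. mt-Nd4, a proton-pumping core subunit of complex I, held 46.4% of all their counts, mt-Nd2 20.5%, mt-Nd1 16.8% and mt-Cytb, the only mitochondrial subunit of complex III, 12.9%. In contrast, mt-Co2 (665 counts over 21 libraries), mt-Co3 (1062), mt-Atp6 (757), mt-Nd3 (242) and mt-Nd4l (0) had few counts or none. These 5 share nearly all their sequence with annotated pseudogenes on chromosome 1: between 98 and 100% of their 50-base words were found there exactly, while mt-Nd1 and mt-Cytb shared none. Reads that align to more than 1 place are listed apart from the genes in the tables. mt-Nd6 (295 counts) and mt-Atp8 (83) were also low and shared no words. The part of the sharing in the low counts was not tested, and no order of abundance among mitochondrial genes is read from these tables.

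The sequences show how complete the sharing is. Each line is 60 bases of the gene on the mitochondrial plus strand (GRCm38): chrM:7537-7596 for mt-Co2, chrM:9231-9290 for mt-Co3, chrM:8448-8507 for mt-Atp6, chrM:11013-11072 for mt-Nd4 and chrM:15129-15188 for mt-Cytb. Capitals mark bases inside a 50-base word that also occurs in an annotated nuclear pseudogene (Gm28661, Gm28437, Gm10925 and Gm28439 for the first 4).
mt-Co2: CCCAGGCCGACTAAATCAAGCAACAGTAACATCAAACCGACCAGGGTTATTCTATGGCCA
mt-Co3: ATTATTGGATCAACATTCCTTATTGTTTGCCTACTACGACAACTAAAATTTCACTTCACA
mt-Atp6: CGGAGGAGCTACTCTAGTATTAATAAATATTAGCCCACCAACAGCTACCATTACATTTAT
mt-Nd4: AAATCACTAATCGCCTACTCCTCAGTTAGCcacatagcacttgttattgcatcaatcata
mt-Cytb: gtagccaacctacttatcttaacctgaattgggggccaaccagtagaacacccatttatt

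In mt-Nd4 the shared stretch stopped at the boundary shown, and the last 502 of its 1378 bases were not shared.

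**Figure D5:**
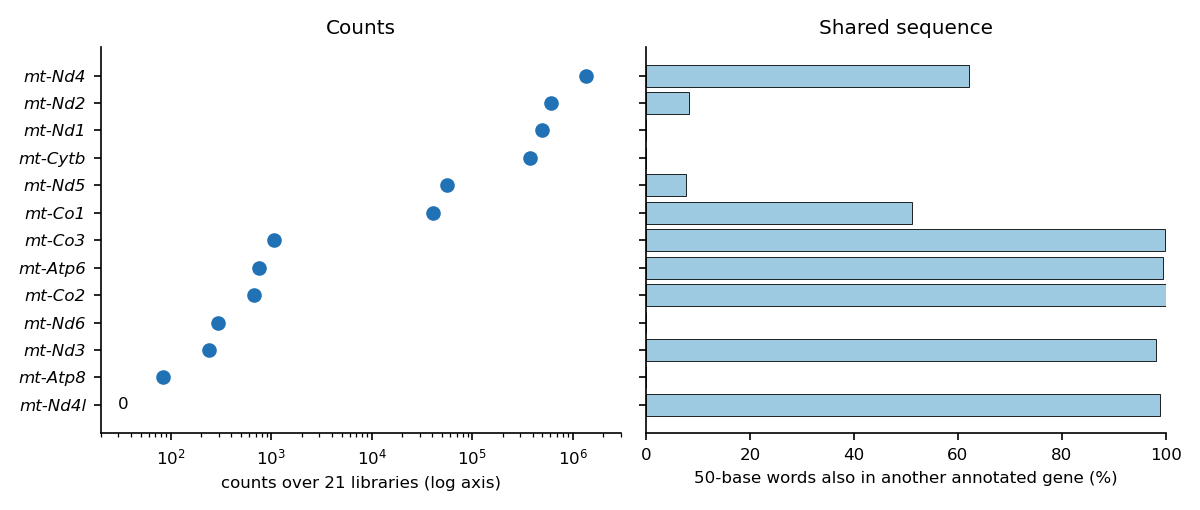
Left, counts over the 21 libraries for each mitochondrially encoded gene (log axis; mt-Nd4l has 0); right, the percent of its 50-base words that occur in another annotated gene. The 5 genes with 98% or more of shared words have 1062 counts or fewer, and mt-Nd6 and mt-Atp8 are low with none shared.

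Across media and between HP and LP, no mitochondrially encoded gene passed in the main test. In each of the 9 comparisons edgeR called 0 of 11, where it called 0 to 9.96% of all genes. Of the 11, 0 to 3 had an unadjusted p under 0.05, beside 4.71 to 26.3% of all genes, and DESeq2 also called 0. The joint test of the 6 cultured groups called 0, beside 13.1% of all genes. There 1 had an unadjusted p under 0.05, beside 28.3% of all genes, and DESeq2 called 0. The joint test called 6 with no filter, and 5 without both libraries that stood apart (24.5% of all genes in that fit). The 3 interactions called 0 in edgeR and in DESeq2, beside at most 0.423% of all genes. There 0 had an unadjusted p under 0.05, beside 6.49 to 11.7% of all genes. mt-Nd4 had 33600, 20000 and 78800 CPM in LIF HP and 37600, 13800 and 11400 CPM in LIF LP, so the groups overlapped. mt-Cytb had 4670, 4970 and 11900 CPM in LIF HP and 7010, 2620 and 2980 CPM in LIF LP, which overlapped as well. The median log2 fold change of the 11 in LIF HP against LIF LP was 0.768, with all 11 above 0. At HP, the mitochondrial share of gene counts was 6.16% ± 2.96 in LIF, 6.21% ± 3.24 in CH+LIF and 2.2% ± 0.903 in 2i+LIF (SD, n = 3 each). Without both libraries that stood apart, 5 of 11 were called in LIF HP against 2i+LIF HP (13% of all genes in that fit), 2 between CH+LIF HP and 2i+LIF HP (4.95%) and 2 in LIF HP against LIF LP (21.6%), all higher in the group named first; without either alone, 1 was called in LIF HP against 2i+LIF HP.

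Against 2i+LIF PO, with run and PO inseparable and the 3 PO libraries shared by all 6 comparisons, mitochondrially encoded genes were lower. Of 11 tested, 8 fell in 2i+LIF LP (as did 2.27% of all genes), 6 in CH+LIF LP (4.07%), 4 in LIF LP (6.11%), 5 in 2i+LIF HP (4.79%), 0 in CH+LIF HP (2.45%) and 1, mt-Co2, in LIF HP (5.17%). In CH+LIF HP 7 had an unadjusted p under 0.05, beside 22.6% of all genes, and DESeq2 called 1. mt-Nd2 had 135000, 18300 and 15700 CPM in PO and 881, 4670 and 5780 CPM in 2i+LIF LP, a log2 fold change of -3.90 ± 0.81 (adjusted p = 0.00721). mt-Cytb had 94400, 9880 and 9200 CPM in PO, and its log2 fold change was -4.10 ± 0.92 in 2i+LIF LP and -4.19 ± 0.92 in 2i+LIF HP. mt-Nd6, the one protein gene on the other strand, was also called lower in CH+LIF LP (adjusted p = 0.00641), with 62.8, 6.28 and 8.23 CPM in PO and 0.484, 0 and 0.759 CPM in CH+LIF LP, where the group held 2 counts in all.

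2i+LIF PO replicate 1, the first of each trio of PO values, weighed heavily. Without it the 6 counts were 1, 1, 0, 2, 0 and 0, and without both libraries that stood apart they were 0, 2, 1, 4, 0 and 1, where the last was mt-Co3, higher in LIF HP (log2 fold change 1.98, adjusted p = 0.015), and mt-Co2 was no longer called; in the same fit 9.89%, 13.1%, 20.8%, 19.6%, 11.8% and 12.7% of all genes were called. Median log2 fold changes were then -0.62, -0.70, -0.47, -0.73, -0.01 and 0.48. With all libraries the medians were -3.21, -2.76, -2.26, -2.53, -1.71 and -1.3, so the direction in LIF HP turned. Nothing in the labels says that same-numbered libraries were paired, but those of 2i+LIF LP and PO deviated together. Their correlation was largest (0.397) in replicate 1, the pair that stood apart. In 2i+LIF LP the replicate block gave 5 in place of 8. The count there was 4 on omitting replicate 1 of 2i+LIF LP, 3 on omitting replicate 2 of 2i+LIF LP and 5 on omitting replicate 2 of CH+LIF LP. In CH+LIF LP it was 3 on omitting replicate 2 or 3 of CH+LIF LP. In LIF LP it was 0 on omitting replicate 2 of LIF LP, 1 on omitting replicate 3 of LIF LP and 7 on omitting replicate 1 of 2i+LIF LP. In 2i+LIF HP it was 3 on omitting replicate 3 of 2i+LIF HP. In CH+LIF HP it was 1 on omitting replicate 2 or 3 of 2i+LIF PO and 3 on omitting replicate 1 of 2i+LIF LP. The single call in LIF HP was lost on leaving out any of 10 libraries (all 3 of LIF HP and of LIF LP, CH+LIF LP replicate 2, 2i+LIF HP replicate 2, CH+LIF HP replicate 2 and 2i+LIF PO replicate 1). It became 4 on omitting replicate 2 of 2i+LIF PO, and 3 on omitting replicate 3 of 2i+LIF PO or replicate 1 of 2i+LIF LP.

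The share of nuclear genes called against PO was near or below that of all genes in most comparisons and above it in LIF HP. In 2i+LIF LP 3 rose and 3 fell, in CH+LIF LP 4 rose and 0 fell, in LIF LP 3 rose and 4 fell, in 2i+LIF HP 9 rose and 2 fell, in CH+LIF HP 5 rose and 0 fell and in LIF HP 36 rose and 0 fell, of 87 tested. These were 6.9%, 4.6%, 8.05%, 12.6%, 5.75% and 41.4% of the nuclear genes, beside 5.06%, 8.31%, 12%, 10.6%, 5.82% and 12.3% of all genes, rises and falls together. In LIF HP, 7.1% of all genes rose. The shares were not tested against each other. The median log2 fold changes were -0.143, 0.294, 0.137, 0.202, 0.452 and 1.08. In LIF HP, 41.9% of the 253 other short, abundant genes rose too, with a median of 1.11. The 87 nuclear genes were not held to the limits of level and exon length that define the 253. Ndufv1 and Cox7b2 rose in all 6. Ndufv1, the core subunit that binds NADH and flavin, had 65.9, 97.5 and 114 CPM in PO and between 185 and 587 CPM in the 18 cultured libraries, so PO did not overlap with any other group. Its log2 fold change was largest in LIF LP (2.07 ± 0.37, adjusted p = 0.000797) and 1.22 ± 0.37 in LIF HP (adjusted p = 0.0304). Cox7b2 had 1.06, 7.06 and 1.99 CPM in PO and 11.2 to 121 CPM in the others, again without overlap. Its log2 fold change was 3.90 ± 0.69 in CH+LIF LP, where 1 library was at 121 CPM and the others at 20 and 21.3, and 2.57 ± 0.68 in CH+LIF HP.

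Ndufa2, an accessory complex I subunit, was among the 3 largest rises in LIF LP (1.42 ± 0.42), 2i+LIF HP (1.87 ± 0.43) and CH+LIF HP (1.82 ± 0.43), and Ndufa5 in 2i+LIF HP (1.90 ± 0.41). Ndufa12, another accessory subunit of complex I, rose by 1.31 ± 0.38 in 2i+LIF LP. Atp5e, the epsilon subunit of complex V, rose by 1.59 ± 0.49 in CH+LIF LP. In LIF HP the largest rises were Cox7a1 (3.88 ± 0.70, adjusted p = 0.00136), Cox7b2 (3.48 ± 0.69) and Uqcrh (2.81 ± 0.52), each called in the main test and all 28 alternatives. Falls were of a different set. Cox7c fell in 2i+LIF LP by 3.09 on the log2 scale (SE 0.70), from 265, 1900 and 772 CPM in PO to 50.5, 185 and 108 CPM, and in LIF LP by 2.51 (SE 0.68). Ndufb3 fell by 2.55 (SE 0.72) in 2i+LIF LP and by 2.20 (SE 0.70) in 2i+LIF HP, Uqcrfs1 by 1.78 (SE 0.50) in 2i+LIF LP and Atp5g3 by 1.89 (SE 0.58) in 2i+LIF HP.

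In LIF LP 4 of the 87 nuclear genes fell, beside 6.11% of all genes. These were Cox7c, Ndufa4, Cox6b1 and Cox5a, all of complex IV, and no test was made of complex IV as a set. Leaving out 1 library gave 2 to 14 nuclear genes called in this comparison, rises and falls together. Cox7c, Ndufa4, Cox6b1 and Cox5a were also among the 27 that rose in LIF HP against LIF LP. Since both comparisons use the LIF LP libraries, this is not independent. Their LIF LP values overlapped PO, in each gene through 2i+LIF PO replicate 1.

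The number of nuclear genes called against PO depended on single libraries. In 2i+LIF LP it was 13 on omitting replicate 1 of 2i+LIF PO, 1 on omitting replicate 2 or 3 of 2i+LIF PO or replicate 3 of 2i+LIF LP, and 3 on omitting replicate 1 of 2i+LIF LP. In CH+LIF LP it was 9 on omitting replicate 1 of 2i+LIF LP, 2 on omitting replicate 1 or 3 of CH+LIF LP and 7 on omitting replicate 3 of 2i+LIF HP. In LIF LP it was 13 on omitting replicate 1 of 2i+LIF PO, 3 on omitting replicate 3 of 2i+LIF PO, 14 on omitting replicate 1 of 2i+LIF LP, 3 on omitting replicate 1 of LIF LP and 2 on omitting replicate 2 of LIF LP. In 2i+LIF HP it was 19 on omitting replicate 1 of 2i+LIF PO or replicate 1 of 2i+LIF LP, 4 on omitting replicate 3 of 2i+LIF PO and 2 on omitting replicate 3 of 2i+LIF HP. In CH+LIF HP it was 10 on omitting replicate 2 of 2i+LIF PO or replicate 1 of 2i+LIF LP, 2 on omitting replicate 3 of 2i+LIF PO, 1 on omitting replicate 1 of CH+LIF HP and 3 on omitting replicate 2 of CH+LIF HP. In LIF HP it was 18 on omitting replicate 1 of 2i+LIF PO or replicate 2 of LIF HP, 22 on omitting replicate 3 of 2i+LIF PO and 17 on omitting replicate 3 of LIF HP. The share of all genes called in these fits is not given.

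No complex II gene passed in any comparison of LIF HP. Their summed level was highest in CH+LIF LP, at 645 ± 123 CPM (SD, n = 3), beside 562 ± 116 CPM in LIF HP and 506 ± 62.4 CPM in LIF LP. As a share of gene counts it was 0.0681% ± 0.0152, 0.0462% ± 0.0136 and 0.0585% ± 0.00991 in the same order. On that scale LIF HP was below LIF LP, so the direction between them depended on the scale. Sdha, which oxidises succinate, had 164, 163 and 139 CPM in LIF HP and 161 ± 17.3 CPM (SD, n = 3) in LIF LP. Sdhb, the iron-sulfur subunit, had 305, 450 and 313 CPM in LIF HP and 344, 335 and 247 CPM in LIF LP. In both genes these groups overlapped. Against the other media at HP, Sdhb was above 2i+LIF HP (204, 169 and 211 CPM) and CH+LIF HP (299, 201 and 270 CPM) in every LIF HP library, with log2 fold changes of 0.87 ± 0.53 and 0.47 ± 0.52 (adjusted p = 0.369 and 0.731). Against PO its log2 fold change was 1.30 ± 0.53 (adjusted p = 0.102), also without overlap. The membrane anchors Sdhc and Sdhd had log2 fold changes of 0.35 ± 0.36 and 0.71 ± 0.64 in LIF HP against LIF LP, with overlapping groups.

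Genes around the respiratory chain were described from lists. In LIF HP against LIF LP, 19 of 75 mitochondrial ribosomal protein genes rose and 1, Mrps18a, fell (median log2 fold change 0.864); Mrpl54 rose by 1.92 ± 0.41 and Mrpl33 by 2.29 ± 0.56. Of 34 assembly factors outside the symbol rule 5 rose, median 0.559: Cox14, Coa3 and Cox17 of complex IV (Cox17, a copper chaperone, by 2.51 ± 0.54, adjusted p = 0.00489) and Uqcc2 and Uqcc3 of complex III. Of 20 genes for the expression of mitochondrial DNA 2 rose, median 0.189: Slirp, which stabilises mitochondrial messenger RNA (2.18 ± 0.42, adjusted p = 0.00225), and Hsd17b10, a subunit of mitochondrial RNase P. edgeR called none of 13 genes of the tricarboxylic acid cycle (median 0.228; 1 at an unadjusted p under 0.05, DESeq2 1), of 12 nuclear regulators of respiratory genes (median -0.612; 3 and 1) or of 3 cytochrome c and c1 genes (median 0.432; 0 and 0). All these medians stand beside 0.00771 for all genes, of which 5.33% rose. An unadjusted p under 0.05 was found for 26.3% of all genes. The other short, abundant genes described above had a higher median in this comparison than any of these lists. The lists were not held to the same limits of level and exon length.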

How the data were processed

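Messenger RNA of 21 libraries was sequenced. The authors deposited raw read counts per Ensembl gene, 1 table per library, made with bcl2fastq, STAR 2.6.0a and HTSeq on mm10 per the submitters' processing notes; read length and strand setting are not given in the sources used here. The 5 closing entries that name no gene were left out of library sizes; their range is given in the report. Genes were named from GENCODE M21 (31011 of 31053 IDs matched).

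All 21 libraries entered 1 edgeR 4.0.16 quasi-likelihood fit (R 4.3.3, limma 3.58.1) with a coefficient per group, TMM scaling and filterByExpr, which left 10643 genes. Tests were two-sided, adjusted by Benjamini-Hochberg over all genes tested, with a threshold of 0.05. CPM use TMM-scaled library sizes, and log2 CPM a prior count of 2. The tests covered 9 comparisons of media or of HP with LP, 6 against PO, a joint test and 3 interactions. The test was checked on simulated counts with known changes. Alternatives were DESeq2 1.42.0, its size factors in edgeR, library sizes without mitochondrial genes and Gm42418, no low-count filter, the replicate number as a block, only the groups compared, and leaving out libraries.

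Same-numbered libraries deviated together with all 3 correlations over 0.1 in 1 of 15 comparisons, 2i+LIF LP against PO (0.397, 0.345 and 0.179). Genes were named by rule: those called in the 9 comparisons, joint test or interactions (the 5 largest with values where over 10), the mitochondrial genes, isoform families, the extremes per kilobase, and up to 3 rises and 3 falls against PO. The genes and lists were chosen with earlier results of these data known. Sequence words of 50 bases were matched between GENCODE transcripts. Promoters came from RefSeq (GRCm38.p6). Counts are not molecules, since no molecular identifiers are recorded, so limits from counts cover counting error only. At these depths the precision of genes with few counts is low.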

Additional observations from a re-analysis of the deposited data

How the results depend on the processing

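Among the named genes followed over the alternatives, none of those called changed direction, while the median of the mitochondrial genes in LIF HP against PO turned from -1.3 to 0.48 without both libraries that stood apart. With a single library left out, the median log2 fold change of the nuclear genes in LIF HP against LIF LP stayed between 1.02 and 1.35. It stayed between 0.85 and 1.22 against 2i+LIF HP, 0.60 and 0.98 against CH+LIF HP and 0.77 and 1.45 against PO. The number called moved widely, and the cause was not tested. Counts of nuclear genes called are given first, then those of mitochondrial genes. The share of all genes called is given only for the main test and for the fit without both libraries that stood apart. Counts in other settings have no such share beside them and cannot be set against it.

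In LIF HP against LIF LP (27), 42 nuclear genes were called with no filter, 42 with the replicate block, 62 with the 2 groups alone and 61 without both libraries that stood apart; leaving out 1 library gave 4 to 48. In LIF HP against 2i+LIF HP (5), the counts were 27 with no filter, 17 with the replicate block, 24 with the groups alone, 44 without both libraries and 20 by DESeq2, and 0 to 24 on leaving out 1. In LIF HP against CH+LIF HP (2), they were 26 with the groups alone and 13 without both libraries, and 0 to 2 on leaving out 1. Between CH+LIF HP and 2i+LIF HP (0), DESeq2 called 1. In 2i+LIF HP against 2i+LIF LP (0), the counts were 2 with no filter, 1 without both libraries (5.72% of all genes) and 1 by DESeq2, and 0 to 1 on leaving out 1. The joint test (27) gave 51 with no filter, 43 with the replicate block, 56 without both libraries (24.5% of all genes) and 46 by DESeq2, and 2 to 45 on leaving out 1. The interaction of LIF with 2i+LIF (0) gave 4 with no filter, 4 without both libraries (1.52% of all genes) and 1 by DESeq2, and 0 to 1 on leaving out 1. That of LIF with CH+LIF (0) gave 3 with no filter, 15 with the groups alone, 5 without both libraries (3.18%) and 1 by DESeq2.

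Against PO, in 2i+LIF LP (6) the counts were 12 with no filter, 0 with the groups alone and 12 without both libraries, and 1 to 13 on leaving out 1. In CH+LIF LP (4) they were 9 with no filter, 7 with the replicate block, 2 with the groups alone and 11 without both libraries, and 2 to 9 on leaving out 1. In LIF LP (7) they were 15 with no filter, 3 with the groups alone and 20 without both libraries, and 2 to 14 on leaving out 1. In 2i+LIF HP (11) they were 19 with no filter, 0 with the groups alone and 25 without both libraries, and 2 to 19 on leaving out 1. In CH+LIF HP (5) they were 13 with no filter, 14 with the replicate block, 3 with the groups alone, 10 without both libraries and 10 by DESeq2, and 1 to 10 on leaving out 1. In LIF HP (36) the groups alone gave 20, and leaving out 1 gave 17 to 45.

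For mitochondrial genes, the comparison of CH+LIF HP with 2i+LIF HP (0) gave 2 without both libraries. LIF HP against 2i+LIF HP (0) gave 3 with no filter, 2 with the groups alone and 5 without both libraries, and 0 to 1 on leaving out 1. LIF HP against LIF LP (0) gave 1 with the groups alone and 2 without both libraries. The joint test (0) gave 6 with no filter, 1 with the groups alone and 5 without both libraries, and 0 to 1 on leaving out 1. Against PO, 2i+LIF LP (8) gave 5 with the replicate block, 0 with the groups alone and 0 without both libraries, and 1 to 8 on leaving out 1. CH+LIF LP (6) gave 2 with the groups alone and 2 without both libraries, and 1 to 9 on leaving out 1. LIF LP (4) gave 8 with no filter, 0 with the groups alone and 1 without both libraries, and 0 to 7 on leaving out 1. 2i+LIF HP (5) gave 8 with no filter and 1 with the groups alone, and 2 to 7 on leaving out 1. CH+LIF HP (0) gave 7 with no filter and 1 by DESeq2, and 0 to 3 on leaving out 1. LIF HP (1) gave 4 with no filter, 0 with the replicate block, 0 with the groups alone and 2 by DESeq2, and 0 to 4 on leaving out 1; without both libraries mt-Co2 was lost and mt-Co3 was called higher.

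By the check above, same-numbered libraries deviated together in 2i+LIF LP against PO alone, and nothing in the labels says that they were paired. Elsewhere the block compares libraries that share only a number. Each group held 3 libraries of 1132126 to 3783043 gene counts, and several mitochondrial genes rested on few counts.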
